A study of Mus musculus with 104 samples.

Results

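Pericentral liver endothelium is represented here by 6 genes, Rspo3, Wnt2, Wnt9b, Thbd, Cdh13 and Kit, taken by symbol from a list and followed through poly(A) RNA-seq of mouse liver and bone marrow cells. They are 6 of the 24940 genes in each of 8 expression tables of different sorts and cultures. The main setting was a sort of untreated C57BL/6J liver cells by surface STAB2, a scavenger receptor of sinusoidal endothelium, into low, intermediate and high fractions with 2 libraries each. The labels number 1 library of each fraction 210, always given first below. The table's header calls the cells endothelial and the mice male, no gate other than STAB2 is named, and nothing says whether a number marks a mouse or a pool, so p-values measure the spread between these libraries, which may be technical.

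The remaining 7 tables served as comparison. Blood Ly6C-high monocytes (4 libraries) came from C57BL/6J mice. Repopulating liver macrophages (RLMs) at 12, 24, 48, 72, 168 and 336 h after diphtheria toxin (2 or 3 libraries each) and Kupffer cells 72 h after PBS (3 libraries) came from Clec4f-cre/Rosa26iDTR mice, in which the toxin receptor is switched on by Cre under the Kupffer cell gene Clec4f. Kupffer cells and TIM4-positive or TIM4-negative liver macrophages came from Nr1h3 flox/flox and Smad4 flox/flox mice without Cre and with 1 copy of Clec4f-cre. RLMs at 24 h after toxin were treated with the gamma-secretase inhibitor LY411575, with antibodies to DLL1 and DLL4, which are Notch ligands, or served as controls. Both sets of these RLMs came from fasted mice, female in the LY411575 set and male in the antibody set, so agent and sex cannot be told apart between the sets. Those RLMs are labelled C57BL/6J although the series design names Clec4f-Cre/DTR mice, and the controls carry the drug or antibody label, so their titles were followed. Bone marrow-derived macrophages (BMDMs) were Nr1h3 WT or Nr1h3 KO, C57BL/6J, Smad4 flox/flox, or Smad4-deleted with a Cre that the sample labels call Clec4f-cre and the design calls LysM-cre. The Smad4 flox/flox and Smad4-deleted BMDMs were untreated or given TGF-beta, DLL4, DLL4 with the gamma-secretase inhibitor DAPT, or DLL4 with TGF-beta. The C57BL/6J BMDMs were untreated or given DLL4, DLL4 with TGF-beta, or these and the sterol DMHCA, for 24 or 72 h, or DMHCA alone for 24 h. C57BL/6J bone marrow monocytes were cultured for 2 days untreated or with DLL4, the sterol desmosterol, DLL4 with TGF-beta, or DLL4 with TGF-beta and desmosterol. The table of these monocytes calls them BMDM in its column names, and the labels were followed.

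Liver lobules carry blood from portal vessels to a central vein, and the endothelium of and around the central vein feeds Wnt signals to neighbouring hepatocytes. Wnt2 and Wnt9b encode secreted Wnt ligands that bind Frizzled receptors with LRP5 or LRP6 and stabilise beta-catenin. Rspo3 encodes an R-spondin, which binds LGR receptors and keeps the ligases RNF43 and ZNRF3 from removing Frizzled. Thbd encodes thrombomodulin, which turns thrombin towards activating protein C. Cdh13 encodes T-cadherin, a GPI-anchored receptor for adiponectin, and Kit encodes the receptor tyrosine kinase for stem cell factor, best known from mast cells and blood progenitors and also present on pericentral liver endothelium.

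All 6 genes were counted on a single RefSeq isoform that was the same in every table, in mm10 coordinates. Rspo3 has 5 exons and lies at chr10:29453107-29535867 on the minus strand. Its exon bases are shared with 1 annotated gene on the other strand, Gm48159, and whether the counting used strand is not given in the sources used here. Wnt2 (5 exons) lies at chr6:17988940-18030445 and Wnt9b (4 exons) at chr11:103727363-103749821, both on the minus strand. Thbd is a gene of 1 exon at chr2:148404471-148408188, minus strand. Cdh13 (14 exons) spans chr8:118283611-119324927 and Kit (21 exons) spans chr5:75574987-75656721, both on the plus strand. No other annotated gene shared exon bases with these last 5.

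The promoters of the Wnt genes and Kit are shown because the set of RefSeq promoters used (GRCm38.p6) held only these 3 of the 6 members. These 3 genes had unlike profiles across the sort. Each is 250 bases before to 50 after the start, 5′ to 3′ on the gene's strand, at chr11:103749772-103750071 (Wnt9b, minus), chr6:18030396-18030695 (Wnt2, minus) and chr5:75574737-75575036 (Kit, plus). Capitals mark matches on either strand to any of 6 motifs. CCACCC is bound by KLF factors and AGGAAG by ETS factors. AGATAA is the GATA motif and TGGGAA that of RBPJ, the Notch effector. CTTTGA is bound by TCF and LEF factors, and CANNTG is the E-box.
Wnt9b promoter: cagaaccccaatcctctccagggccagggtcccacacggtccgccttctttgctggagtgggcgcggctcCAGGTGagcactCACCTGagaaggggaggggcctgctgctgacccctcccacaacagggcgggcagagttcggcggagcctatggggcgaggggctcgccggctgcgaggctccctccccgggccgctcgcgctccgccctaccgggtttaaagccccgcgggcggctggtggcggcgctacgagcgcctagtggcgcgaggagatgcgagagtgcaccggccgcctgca
Wnt2 promoter: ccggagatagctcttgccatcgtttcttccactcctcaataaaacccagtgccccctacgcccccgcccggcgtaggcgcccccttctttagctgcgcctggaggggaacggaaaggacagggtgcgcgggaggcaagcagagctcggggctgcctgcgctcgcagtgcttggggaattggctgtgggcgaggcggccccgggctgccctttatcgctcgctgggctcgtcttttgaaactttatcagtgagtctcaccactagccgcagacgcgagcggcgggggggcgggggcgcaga
Kit promoter: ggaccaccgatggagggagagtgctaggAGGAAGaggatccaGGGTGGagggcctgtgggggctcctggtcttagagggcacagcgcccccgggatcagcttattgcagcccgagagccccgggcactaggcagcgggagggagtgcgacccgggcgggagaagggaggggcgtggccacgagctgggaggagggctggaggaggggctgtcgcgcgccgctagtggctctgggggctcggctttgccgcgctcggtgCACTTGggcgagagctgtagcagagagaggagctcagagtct
The Wnt9b window held 2 E-boxes and the Wnt2 window no match. Kit's window held 1 KLF, 1 ETS and 1 E-box match. Among all 32851 RefSeq promoters of that length, the KLF motif occurred in 31.5%, the ETS motif in 35.4%, the GATA motif in 11.2%, the RBPJ motif in 25.6%, the TCF/LEF motif in 16.0% and the E-box in 72.3%. The GC content was 71.7% for Wnt9b, 65.7% for Wnt2 and 69.0% for Kit.

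The 6 libraries of the sort held 13920852 to 18944277 reads in genes, recovered from the deposited values, and no member was under 4 TPM, a transcript level scaled per length and library, in any of them. The endothelial label matched its markers: all 11 pan-endothelial genes were above 4 TPM in each fraction, with a summed level of 8356 to 9335 TPM in STAB2-low, 7047 to 7813 in intermediate and 7428 to 7968 in high libraries. Markers of lymphocytes (9 genes) summed to at most 4.04 TPM, neutrophil markers (6 genes) to at most 3.09 and cholangiocyte markers (5 genes) to at most 7.14. Hepatocyte markers (12 genes, mostly Alb) summed to 44.1 to 53.6 TPM in STAB2-low and 191 to 203 in STAB2-high libraries, opposite in direction to the members that rose. Their part in the results was not tested. Both STAB2-low libraries carry a different library code in the header from the 4 other libraries, so the low fraction and that code cannot be told apart, while intermediate and high share a code.

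A group of 4 members stood far higher in the STAB2-low fraction, Wnt2 was moderately higher and Kit was lower. Of 10576 genes tested, 1442 (13.6%) passed an adjusted p of 0.05 and a 2-fold difference between STAB2-low and STAB2-high. In low, 856 were higher (8.09%) and 586 lower (5.54%). Of the 6 members, 4 were among those higher and none among those lower. Their median log2 difference was 2.60, against 0.08 over all genes tested. The members were chosen with earlier results of these data known, so neither the count nor the median is an independent test. Scaling every library to its pan-endothelial genes put the split of calls at 673 higher and 760 lower and moved the median of all genes to -0.11, with 4 members again called higher and Kit called lower.

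**Figure D1:**
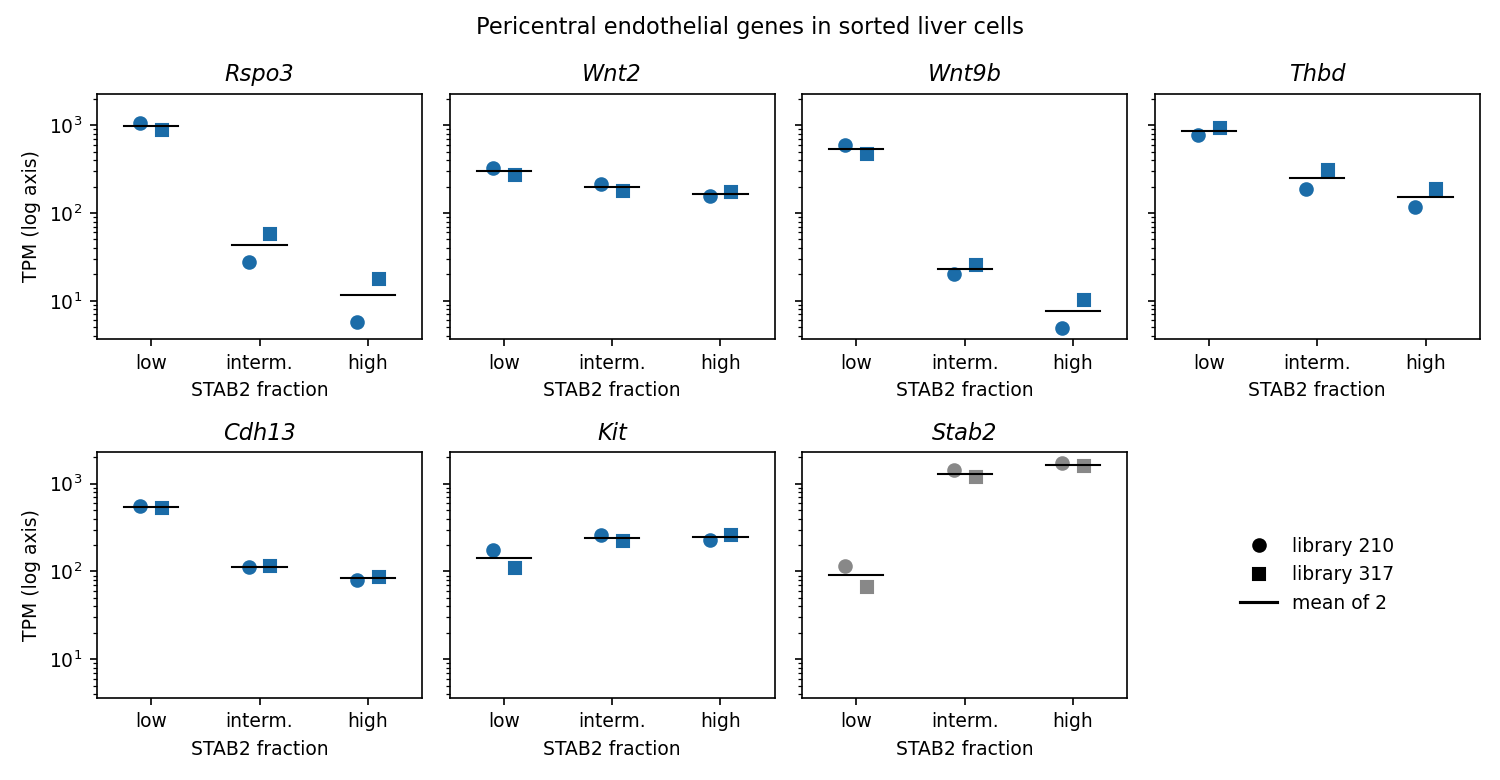
TPM of the 6 genes and of Stab2 (gray) in each STAB2 fraction, on a log axis shared by all panels. Each point is 1 library, circles for the library numbered 210 and squares for the other, and lines are means of 2. Rspo3 and Wnt9b span the widest range, Wnt2 the narrowest of the genes higher in STAB2-low, and Kit alone among the members is lowest in STAB2-low.

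Stab2 itself, the sorted antigen, measured 116 and 67.0 TPM in the low, 1420 and 1190 in the intermediate and 1713 and 1575 in the high libraries, which describes the sort and is no finding. Rspo3, the R-spondin, measured 1064 and 888 TPM in the STAB2-low libraries, 27.5 and 57.9 in intermediate and 5.75 and 17.5 in high. The 3 fractions did not overlap, and in STAB2-low Rspo3 ranked between 35 and 45 of all 24940 genes. The log2(TPM + 1) difference of low from high was 6.44 ± 0.51 (SE), an 87.1-fold change on that scale (limma, adjusted p = 0.00032, 2 libraries against 2). Against the intermediate fraction the difference was 4.57 ± 0.51 (adjusted p = 0.00166, limma).

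Wnt9b, the second of the ligands with a steep profile, measured 589 and 470 TPM in low, 20.2 and 25.4 in intermediate and 4.88 and 10.3 in high libraries. Every low library was above every intermediate library, and those above every high library. The difference of low from high was 6.01 ± 0.30 on the log2 scale (adjusted p = 8.44e-05, limma) and that of low from intermediate 4.48 ± 0.30 (adjusted p = 0.000306). Rspo3 and Wnt9b kept a similar proportion while both varied: the ratio of their TPM was 1.81 and 1.89 in low, 1.37 and 2.28 in intermediate and 1.18 and 1.69 in high libraries.

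Wnt2, by contrast, was abundant in every fraction. It measured 328 and 270 TPM in low, 215 and 178 in intermediate and 154 and 175 in high libraries. Low libraries lay above all others, and intermediate and high libraries nearly touched. The difference of low from high was 0.85 ± 0.14 on the log2 scale, 1.80-fold (adjusted p = 0.00565, limma), which passed the p threshold but not the 2-fold limit. Low and intermediate differed by 0.60 ± 0.14 (adjusted p = 0.0274, limma). That difference missed the p threshold with quantile normalization (0.52, adjusted p = 0.0507), no filter (0.60, adjusted p = 0.0588) and scaling to pan-endothelial genes (0.35, adjusted p = 0.112). It passed with a pseudocount of 0.25, limma-voom and a replicate block. Over libraries left out it spanned 0.46 to 0.74.

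The make-up of Wnt transcripts therefore differed between fractions, since TPM is scaled per length and levels of genes can be compared. In STAB2-low, Wnt9b made up 64.1% and 63.4% of the summed TPM of 19 Wnt genes and Wnt2 35.7% and 36.3%. In STAB2-high, Wnt2 made up 96.0% and 92.3% and Wnt9b 3.04% and 5.46%. The intermediate libraries stood between, with 90.5% and 86.5% from Wnt2. Summed Wnt TPM was 919 and 742 in low, 238 and 206 in intermediate and 160.8 and 189 in high libraries. The 17 other Wnt genes summed to 4.19 TPM at most, none passed the filter on low values, and the highest was Wnt2b or Wnt4 at 1.76 TPM or less. Rspo1, Rspo2 and Rspo4 together reached 0.383 TPM at most, so that Rspo3 supplied 93.8% or more of R-spondin TPM in each library.

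**Figure D2:**
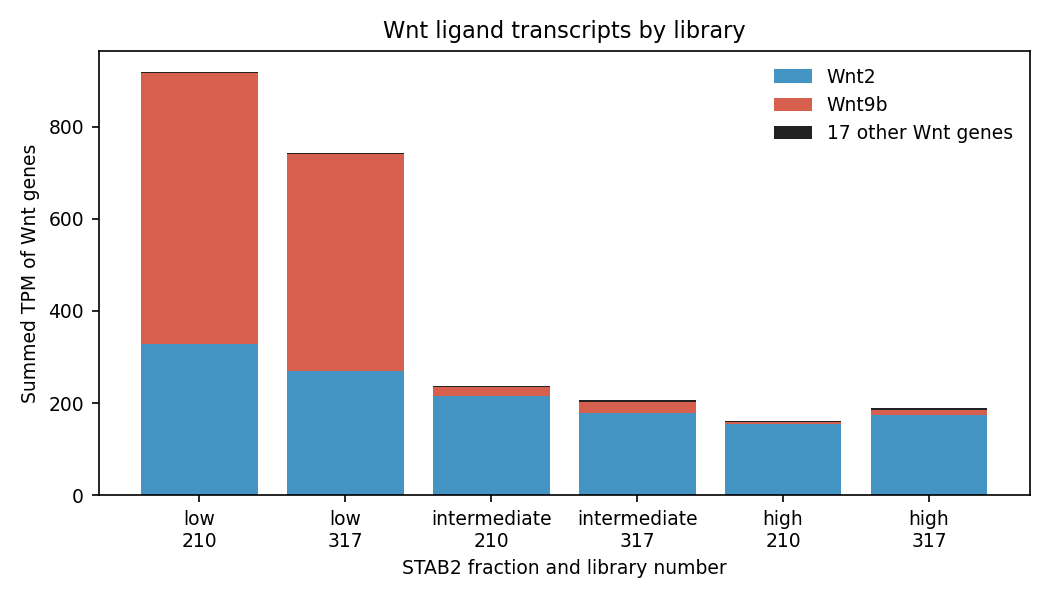
Summed TPM of the 19 Wnt genes in each of the 6 libraries, from 0, divided into Wnt2 (blue), Wnt9b (red) and the 17 other Wnt genes (black, up to 4.19 TPM). Wnt9b is the larger part in both STAB2-low libraries and Wnt2 in the 4 others.

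Thbd, which encodes thrombomodulin, measured 768 and 928 TPM in low, 188 and 312 in intermediate and 116 and 189 in high libraries. The low libraries were above all others, while the lower intermediate library and the higher high library overlapped. Within each library number, intermediate was above high. The difference of low from high was 2.51 ± 0.30 on the log2 scale, 5.68-fold (adjusted p = 0.0015, limma), and of low from intermediate 1.80 ± 0.30 (adjusted p = 0.00738).

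Cdh13 had the closest replicates of the members called higher. It measured 559 and 525 TPM in low, 113 and 115 in intermediate and 80.5 and 86.0 in high libraries, with no overlap between fractions. Its difference of low from high was 2.69 ± 0.09 (6.44-fold, adjusted p = 4.1e-05, limma) and of low from intermediate 2.24 ± 0.09 (adjusted p = 8.09e-05).

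Kit ran the other way. It measured 174 and 111 TPM in low, 262 and 222 in intermediate and 229 and 260 in high libraries. Both low libraries were below all others, and intermediate and high overlapped. Low differed from high by -0.81 ± 0.21 on the log2 scale (0.571-fold, adjusted p = 0.0312, limma) and from intermediate by -0.79 ± 0.21 (adjusted p = 0.0419), under the 2-fold limit both times. With libraries scaled to pan-endothelial genes the difference from high was -1.01 (adjusted p = 0.00789, limma), and without the STAB2-low library numbered 210 it was -1.13, both past the 2-fold limit. Without the other STAB2-low library it was -0.48. With no filter on low values, neither difference passed the p threshold (adjusted p = 0.0653 from high and 0.0891 from intermediate, limma). The fall of Kit thus depended on the setting. Mast cells, a rich source of Kit elsewhere, were represented by 9 markers, of which 6 were at 0 in both libraries of each fraction, among them Cpa3 and Mcpt4. The summed level of that list was 141 to 173 TPM in low and 51.7 to 64.8 in high, and the genes behind it, Cd34 and Gata2, are also endothelial genes.

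STAB2-low against STAB2-intermediate called 1096 genes (10.4%), 679 higher and 417 lower in low, and again 4 members higher and none lower. Rescaled to pan-endothelial genes, those calls were 522 higher and 642 lower. The members' median log2 difference was 2.02, beside 0.07 over all genes tested, again for genes chosen with earlier results known. Between STAB2-intermediate and STAB2-high, within a shared library code, 1 gene of 10576 (0.00946%) was called and it was not a member. That gene, Igfbp5, an insulin-like growth factor binding protein named after its value was seen, was higher in intermediate by 3.15 ± 0.21 on the log2 scale (adjusted p = 0.0236, limma), with 20.8 and 21.5 TPM against 2.01 and 1.08. At an unadjusted p under 0.05, 872 genes differed. Rspo3 was higher in intermediate by 1.87 ± 0.51 (adjusted p = 0.418), Wnt9b by 1.53 ± 0.30 (adjusted p = 0.26), Thbd by 0.71 ± 0.30 (adjusted p = 0.61), Cdh13 by 0.45 ± 0.09 (adjusted p = 0.258) and Wnt2 by 0.25 ± 0.14 (adjusted p = 0.696). Kit differed by -0.02 ± 0.21 (adjusted p = 0.989). None of these 6 passed limma's test, which does not show that the fractions were alike.

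**Figure D3:**
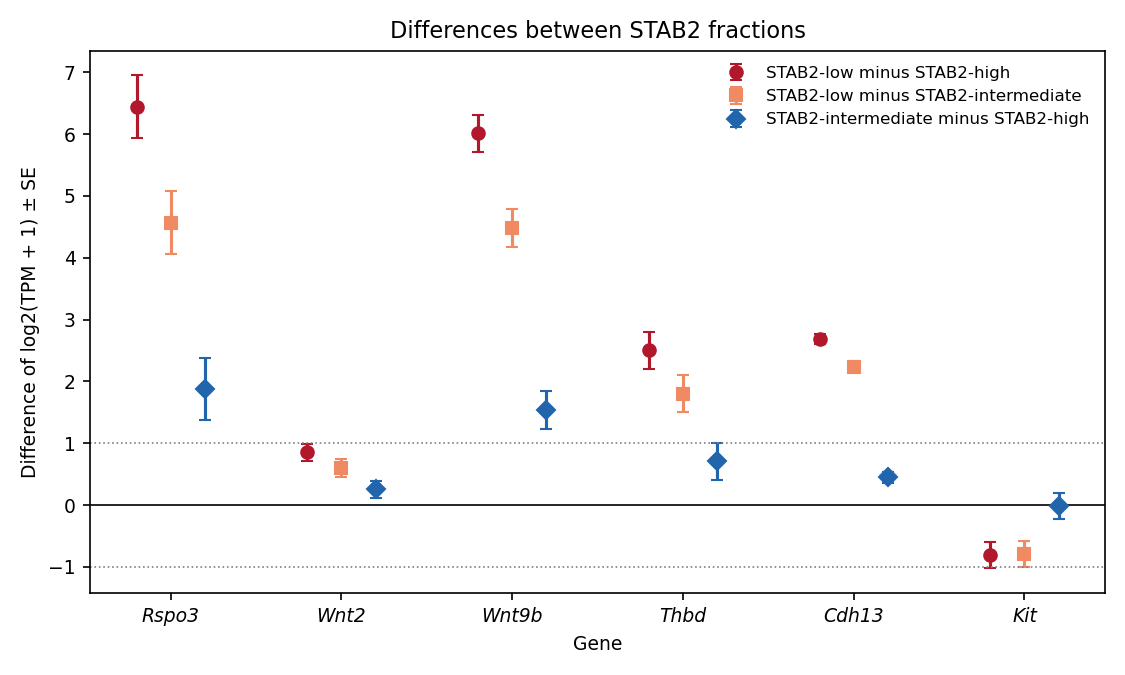
Differences of log2(TPM + 1) with their standard errors for the 6 genes in the 3 comparisons of STAB2 fractions (2 libraries each), with dotted lines at a 2-fold change. Rspo3 and Wnt9b exceed 6 in STAB2-low against STAB2-high, Thbd and Cdh13 lie between 2 and 3, Wnt2 is under 1 and Kit is below 0.

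Fewer cells of a type and less RNA per cell cannot be told apart in these bulk fractions. The genes most like each member over the 6 libraries were found by the root mean square difference of centred log2(TPM + 1). They were picked for that likeness, so their shared profile is no separate support. For Rspo3 they were Selp, encoding the adhesion molecule P-selectin (0.30), Wnt9b (0.32) and Entpd1, encoding the ectonucleotidase CD39 (0.37). For Wnt9b they were Gpm6a (0.20), Selp (0.23) and the kinase gene Nuak1 (0.29). Thbd was nearest to Il33, an alarmin cytokine (0.08), Lims2 (0.09) and Pdia5 (0.09). Cdh13 was nearest to Gramd4 (0.06), Cdc42ep3 (0.09) and Pltp, encoding phospholipid transfer protein (0.10). Wnt2 was nearest to Gpat3 (0.03) and the class I genes H2-Q6 (0.04) and H2-Q8 (0.05), which share reads with near-identical copies and are uncertain. Kit was nearest to Ada, encoding adenosine deaminase (0.06), Tmem60 (0.07) and Lin54 (0.08). A shallow profile has many near neighbours: 1208 of 9935 genes lay within 0.25 of Wnt2, 516 of Kit, 68 of Cdh13, 31 of Thbd, 2 of Wnt9b and 0 of Rspo3.

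Other genes listed for pericentral or central vein endothelium moved with the steep members in STAB2-low against STAB2-high. Whether they come from the same vessels as the members was not tested. This list, too, was chosen with earlier results of these data known. Of all genes tested, 8.09% were called higher. Of 6 further pericentral or central vein genes, 5 were higher in low and none lower, with a median log2 difference of 3.15. Vwf, the clotting carrier von Willebrand factor, measured 1608 and 1436 TPM in low, 19.0 and 70.0 in intermediate and 1.02 and 2.49 in high libraries. Selp measured 283 and 251 TPM in low and 2.11 and 7.04 in high libraries, and the transcription factor gene Lhx6 282 and 242 in low against 11.5 and 18.6 in high. Fabp4, a fatty acid binding protein, differed by 2.24 ± 0.29 (adjusted p = 0.0021, limma).

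Sinusoidal genes ran against the members, with 12 of 13 lower in STAB2-low and none higher, and a median of -2.50. That list holds Stab2, and Lyve1 (-3.93 ± 0.24, adjusted p = 0.000135) and Fcgr2b (-3.03 ± 0.16, adjusted p = 8.44e-05) were other members of it, a hyaluronan receptor and an Fc receptor. Periportal genes were mixed. Of 10 periportal genes, 4 were higher and 1 lower, with a median of 0.70. The shares over all genes tested were 8.09% higher and 5.54% lower. The arterial connexin gene Gja5 measured 129 and 172 TPM in low and 0.486 and 0.149 in high libraries, Efnb1 rose by 1.94 ± 0.17 (adjusted p = 0.000436), Hey1, a Notch target, by 1.63 ± 0.33 (adjusted p = 0.0122), and Msr1 fell by 1.33 (adjusted p = 0.000889, limma). Hey1 passed the filter on low values only through the STAB2-low libraries. Whether the members' transcripts and Gja5 lie in the same cells was not tested.

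The receiving and restraining side of the Wnt pathway was also measured. Of 18 Wnt and R-spondin receptors, 7 passed the filter and 2 were higher in low, Fzd6 at 88.4 and 99.4 TPM against 24.2 and 20.1 in high, and Fzd7 by 2.03 ± 0.32 (adjusted p = 0.00462, limma). Of 14 antagonists, 4 passed and 3 were higher, where 8.09% of all genes tested were higher. The decoy gene Frzb measured 15.1 and 10.6 TPM in low and 0.04 and 0.40 in high libraries. Rnf43, whose product R-spondins block, measured 10.7 and 8.33 TPM in low and was listed at 0 in both high libraries, and the membrane inhibitor gene Apcdd1 measured 12.3 and 16.6 against 0.668 and 0.584. Fzd7 and these 3 antagonist genes passed the filter on low values only through the STAB2-low libraries. Their higher calls therefore describe low values in the other fractions and are no separate support. Both secretion genes, Wls and Porcn, were measured in all fractions at 112 and 9.95 TPM on average in low, and their differences from high were 0.33 ± 0.14 (adjusted p = 0.128) and 0.42 ± 0.20 (adjusted p = 0.17).

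Inside the cell the picture was mixed. Of 15 beta-catenin pathway genes, 13 were tested and 1, the co-activator gene Bcl9l, was higher (1.47 ± 0.11, adjusted p = 0.000283, limma). That count is near the 8.09% of all genes tested that were higher, so it is no result about the pathway. Of 6 general target genes, 3 were tested, and Axin2 was higher (1.74 ± 0.39, adjusted p = 0.0187) while the cyclin gene Ccnd1 was lower (-1.95 ± 0.12, adjusted p = 0.00014, limma). Axin2 measured 7.38 and 4.01 TPM in low against 0.631 and 1.32 in high libraries. It passed the filter on low values only through the low libraries, so its higher call is no separate support. Of 7 Wnt-dependent hepatocyte genes, 3 were tested and Cyp2e1, which passed the filter only through the high libraries, was lower. Glutamine synthetase, Glul, was at 504 TPM on average in low and 479 in high, a difference of 0.06 ± 0.23 (adjusted p = 0.887).

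Around thrombomodulin, 4 of the 10 tested genes of coagulation control were higher in low and 2 lower, with a median of 0.12. Over all genes tested, 8.09% were higher and 5.54% lower. Procr, the endothelial protein C receptor, measured 18.1 and 17.3 TPM in low and 3.58 and 4.35 in high libraries. Besides Vwf, the tissue plasminogen activator gene Plat rose by 4.68 ± 0.41 (adjusted p = 0.000473), and the flow-responsive factor gene Klf4 by 1.76 ± 0.29 (adjusted p = 0.00504). Of these, Plat passed the filter on low values only through the STAB2-low libraries. Tfpi, an inhibitor of tissue factor, fell by 1.69 (adjusted p = 0.000133, limma). F2, the prothrombin gene of hepatocytes, was the other gene lower. It measured 1.91 and 0.525 TPM in low and 5.49 and 5.95 in high libraries. It passed the filter on low values only through the intermediate and high libraries, so its lower call is no separate support.

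For Kit, 11 of 12 pathway genes were tested, 2 were lower (beside 5.54% of all genes tested) and none higher, with a median of 0.02. These were the Src family kinase genes Fyn (-1.26 ± 0.08, adjusted p = 0.000176) and Lyn (-1.04 ± 0.09, adjusted p = 0.000509, limma). The ligand gene Kitl measured 77.9 and 82.7 TPM in low and 53.1 and 40.3 in high libraries, a difference of 0.78 ± 0.16 (adjusted p = 0.014), under the 2-fold limit and opposite in sign to Kit.

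Markers of neighbouring cell types were also measured. In the mesothelial list, 4 of 5 genes, Msln and Upk3b included, were at 0 in both STAB2-low libraries, and the fifth, Gpm6a, was at 220.1 and 159.3 TPM there. The stellate and fibroblast list (14 genes) summed to 309 to 324 TPM in low and 248 to 259 in high, led by Ecm1, and Dcn was at 5.26 and 10.3 TPM in low and 12.0 and 22.8 in high. The lymphatic list was led by Flt4, a sinusoidal gene as well, with Pdpn at 0 in both low libraries and Prox1 at 0.94 and 1.16 TPM. Kupffer cell markers (8 genes) summed to 110 to 135 TPM in low and 160.9 to 177 in high libraries.

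Outside the endothelial sort the same genes were scarce, except Thbd. In the toxin time course 4 members passed the filter in 22 libraries, in the table of Nr1h3 deletion 2 members, and in each other table only Thbd did. The tables were normalized separately, so levels set across them are approximate. In blood monocytes Rspo3, Wnt9b and Cdh13 had 0 reads in all 4 libraries, Wnt2 had 1 read in all and Kit 5. In the 48 libraries of the 3 tables with cultured cells alone, Rspo3, Wnt2 and Wnt9b had at most 3 reads each, and Cdh13 reached 0.186 TPM. Kit was measured in all of these, at 0.787 to 2.56 TPM in Smad4 flox/flox and Smad4-deleted BMDMs, 0.215 to 4.01 in C57BL/6J BMDMs and 0.068 to 0.98 in bone marrow monocytes. In the Smad4 and Notch tables of liver macrophages Rspo3 lay between 0.349 and 2.47 TPM, Wnt2 between 0.132 and 2.54, Wnt9b between 0 and 0.851, Cdh13 between 0 and 1.05 and Kit between 0.418 and 3.08.

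**Figure D4:**
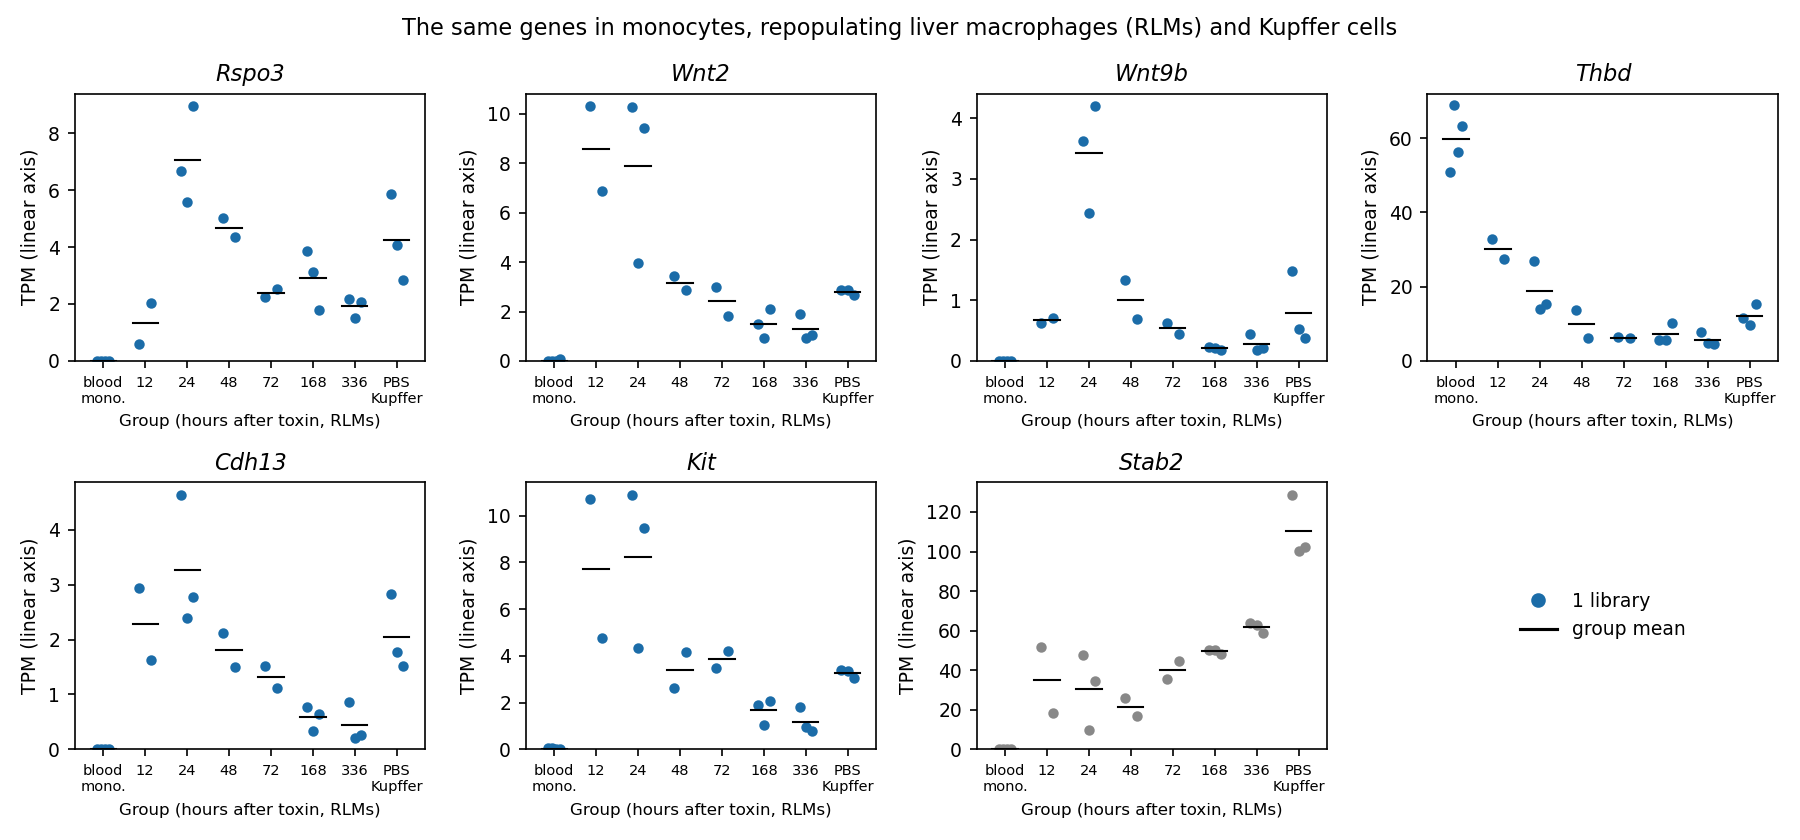
TPM of the 6 genes and of Stab2 (gray) in blood monocytes, RLMs by hours after diphtheria toxin and PBS-treated Kupffer cells, with a linear axis from 0 in each panel. Points are libraries and lines group means. All but Thbd are at or near 0 in monocytes. The means of the members other than Thbd are highest at 12 or 24 h, that of Stab2 in Kupffer cells and that of Thbd in monocytes.

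In liver macrophages these 5 genes appeared at a few TPM. Rspo3 measured 0.592 and 2.05 TPM in 12 h RLMs, 6.67, 5.57 and 8.95 in 24 h RLMs, 5.00 and 4.37 in 48 h RLMs, 2.26 and 2.54 in 72 h RLMs, 3.86, 3.13 and 1.77 in 168 h RLMs, 2.18, 1.50 and 2.07 in 336 h RLMs and 5.87, 4.07 and 2.85 in Kupffer cells. Its 24 h libraries lay above the RLM libraries of other times, and the 24 h and Kupffer cell groups overlapped. Against a floor of 3 reads in each monocyte library, mean Rspo3 was at least 42.1-fold higher at 24 h and at least 25.4-fold higher in Kupffer cells. Wnt2 measured 10.3 and 6.88 TPM in 12 h RLMs, 10.3, 3.98 and 9.43 in 24 h RLMs, 3.45 and 2.88 in 48 h RLMs, 1.90, 0.922 and 1.06 in 336 h RLMs and 2.86, 2.89 and 2.65 in Kupffer cells. The 12 h and 24 h groups overlapped and were above all others.

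Kit measured 10.7 and 4.76 TPM in 12 h RLMs, 10.9, 4.33 and 9.49 in 24 h RLMs, 1.82, 0.942 and 0.768 in 336 h RLMs and 3.40, 3.34 and 3.06 in Kupffer cells. Wnt9b and Cdh13 did not pass the filter and peaked at 4.196 and 4.63 TPM, both at 24 h. Rspo3, Wnt2 and Kit passed the filter on low values only through the liver groups, and monocytes were the shared control of all 7 tests, so their higher calls at each time and in Kupffer cells describe near-absence in monocytes and are no support from 7 separate tests. All calls, in either direction, came to 25.2% of 11373 genes at 12 h, 33.4% at 24 h, 37.4% at 48 h, 37.1% at 72 h, 29.0% at 168 h, 30.8% at 336 h and 35.1% for Kupffer cells, and higher calls alone to between 12.5% and 21.4%. At 24 h the differences were 2.99 ± 0.24 for Rspo3 (adjusted p = 6.26e-09), 3.04 ± 0.25 for Wnt2 (adjusted p = 9.03e-09) and 3.08 ± 0.27 for Kit (adjusted p = 2.06e-08, limma), values that depend on the pseudocount of 1 because monocytes were at 0 or nearly so. In all, 3 calls were lost when a single library was left out: Rspo3 at 12 h without the higher of its libraries (0.67), and Wnt2 and Kit at 336 h without the library highest in both (0.97 and 0.85). Quantile normalization took away 10 of the calls: Rspo3 at 12, 72 and 336 h, Wnt2 at 72, 168 and 336 h and in Kupffer cells, and Kit at 168 and 336 h and in Kupffer cells, with differences between 0.12 and 0.91.

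Endothelial markers moved beside these low levels. Clec4g, a lectin gene of sinusoidal endothelium, had medians of 0.443 TPM in monocytes, 151.4 at 12 h, 160 at 24 h, 67.2 at 48 h, 94.2 at 72 h, 38.4 at 168 h, 23.7 at 336 h and 72.4 in Kupffer cells. Stab2 differed from it in its course, with 51.9 and 18.4 TPM at 12 h and 129, 100 and 102 in Kupffer cells. The pan-endothelial list summed to 11.4 to 18.7 TPM in monocytes, with 2 of 11 genes at 4 TPM, to 200 to 437 at 24 h, with all 11, and to 708 to 721 in Kupffer cells, with 10. Its leading gene in Kupffer cells, Cdh5, increased from a median of 31.6 TPM at 12 h to 371 at 336 h and 457 in Kupffer cells. Egfl7, a vascular gene of the same list, ran the other way, with medians of 35.7 TPM at 12 h, 43.3 at 24 h, 7.43 at 336 h and 20.9 in Kupffer cells. The part of endothelial RNA in the members' levels was not tested. Shares of Stab2 TPM change with Stab2 as well as with the member, and Stab2 was higher in Kupffer cells than at 12 h. As a share of Stab2 TPM, Wnt2 was 2.22% to 2.88% in Kupffer cells and 9.01% to 11.1% in STAB2-high cells, and Kit 2.64% to 3.33% and 13.4% to 16.5%. In RLMs at 12 and 24 h these shares lay above the STAB2-high range. Wnt2 was 19.9% to 37.4% at 12 h and 21.6% to 40.4% at 24 h, and Kit 20.6% to 25.9% and 22.9% to 44.0%. At 48 h Wnt2 was still above its range, while Kit, at 10.15% to 24.61%, spanned its own. At 72, 168 and 336 h both genes were below their STAB2-high ranges. Wnt2 was 4.073% to 8.503% at 72 h and 1.469% to 2.958% at 336 h, and Kit 9.42% to 9.864% and 1.306% to 2.841%. Rspo3 was 1.14% to 11.1% of Stab2 at 12 h, 14.0% to 56.6% at 24 h and 2.79% to 4.56% in Kupffer cells, between its 0.336% to 1.11% in STAB2-high and 916% to 1326% in STAB2-low cells.

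Compared with Kupffer cells, RLMs at 336 h had lower fitted levels of the 4 tested members, none past 2-fold. The differences were -0.82 ± 0.26 for Rspo3 (adjusted p = 0.0313), -0.97 ± 0.28 for Thbd (adjusted p = 0.0195), -0.999 ± 0.29 for Kit (adjusted p = 0.0218) and -0.75 ± 0.27 for Wnt2 (adjusted p = 0.0558, limma). Stab2 differed by -0.82 ± 0.39 (adjusted p = 0.148) in the same test.

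Thbd was the member detected in every library of the series. It measured 50.8, 68.8, 56.3 and 63.3 TPM in blood monocytes, 32.8 and 27.6 in 12 h RLMs, 26.9, 14.0 and 15.4 in 24 h RLMs, 13.7 and 6.29 in 48 h RLMs, 6.31 and 6.24 in 72 h RLMs, 5.65, 5.71 and 10.2 in 168 h RLMs, 7.78, 4.87 and 4.60 in 336 h RLMs and 11.5, 9.67 and 15.4 in Kupffer cells. Monocytes were above every other group, and the Kupffer cell range overlapped those of 24, 48 and 168 h and lay above those of 72 and 336 h. The fall was called from 24 h (-1.67 ± 0.26, adjusted p = 1.66e-05, limma) to 336 h (-3.19 ± 0.26, adjusted p = 5.17e-09) and in Kupffer cells (-2.22 ± 0.26, adjusted p = 5.09e-07), and not at 12 h.

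The same gene fell when bone marrow monocytes were cultured on DLL4. It measured 29.9 and 29.2 TPM untreated, 6.85 and 6.32 with DLL4, 26.1 and 24.8 with desmosterol, 2.55 and 3.06 with DLL4 and TGF-beta and 2.67 and 3.03 with all 3 agents. The groups with DLL4 lay below those without. DLL4 lowered it by 2.01 on the log2 scale (-2.01 ± 0.09, adjusted p = 3.39e-08, limma), where 19.5% of 10234 genes were called. Adding TGF-beta to DLL4 gave a difference of -0.998 ± 0.09 (adjusted p = 1.28e-05), just under the 2-fold limit.

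**Figure D5:**
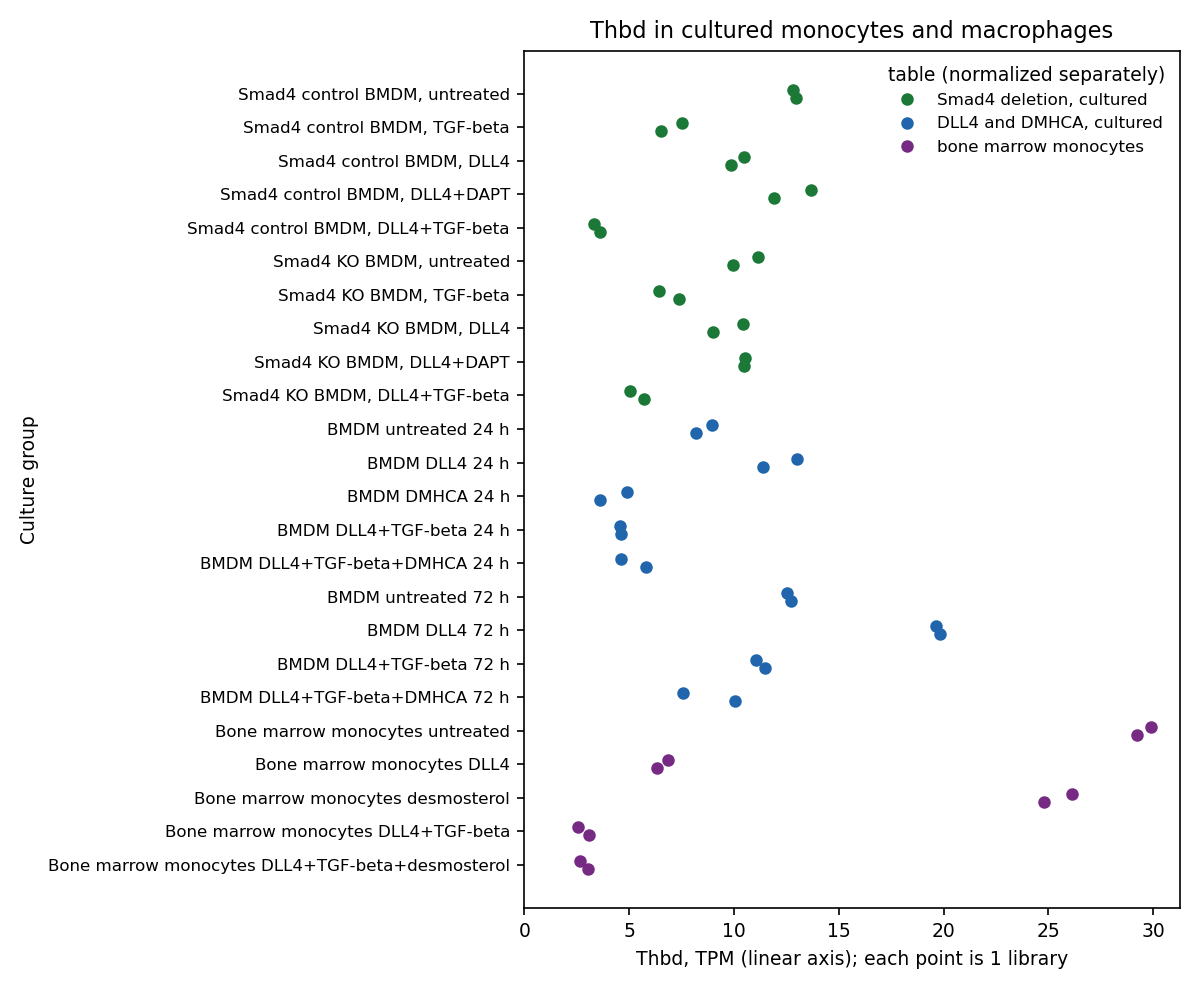
Thbd TPM in each of the 48 libraries of cultured BMDMs and bone marrow monocytes, on a linear axis from 0, colored by table. Libraries with DLL4 and TGF-beta lie below those with DLL4 alone in every pair of groups, while DLL4 alone lies below untreated cells in bone marrow monocytes and above them in C57BL/6J BMDMs.

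In BMDMs the response to DLL4 differed in sign between tables, and this was not tested across them. Smad4 flox/flox BMDMs held 12.8 and 13.0 TPM untreated and 9.86 and 10.5 with DLL4 (-0.32 ± 0.10, adjusted p = 0.0198), whereas C57BL/6J BMDMs held 8.94 and 8.20 untreated and 13.0 and 11.4 with DLL4 at 24 h (0.46 ± 0.14, adjusted p = 0.0237, limma). Libraries titled 72 h carry a DLL4 label of 24 h, and there the values were 12.5 and 12.7 TPM untreated and 19.6 and 19.8 with DLL4 (0.60 ± 0.14, adjusted p = 0.00899). TGF-beta had the same sign in both tables. On top of DLL4 it gave 3.34 and 3.60 TPM in Smad4 flox/flox BMDMs (-1.32 ± 0.10, adjusted p = 1.19e-07, with 6.66% of 10267 genes called) and 4.55 and 4.62 in C57BL/6J BMDMs at 24 h (-1.24 ± 0.14, adjusted p = 1.29e-05, with 3.80% of 10908 genes called).

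Smad4 was at 25.1 TPM on average in untreated Smad4 flox/flox BMDMs and 10.2 in the libraries labelled as deleted. In these libraries Thbd measured 8.98 and 10.4 TPM with DLL4 and 5.02 and 5.68 with DLL4 and TGF-beta, a difference of -0.75 ± 0.10 (adjusted p = 0.000323, limma). The response was smaller than in Smad4 flox/flox cells by 0.57 ± 0.14 (adjusted p = 0.0142), in a test of the difference itself that was added after the data had been seen. With DMHCA alone, C57BL/6J BMDMs held 4.88 and 3.59 TPM of Thbd (-0.88 ± 0.14, adjusted p = 0.000185), under the 2-fold limit.

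Among liver macrophages of the deletion and Notch tables, Thbd stayed between 6.80 and 27.6 TPM. Nr1h3 itself was at 8.43 TPM on average in the libraries labelled Nr1h3 KO BMDM against 42.6 in wild-type BMDMs. In liver macrophages labelled as Nr1h3-deleted it was not lower than in control Kupffer cells beyond the spread, at 406.6 (TIM4-positive) and 368.0 (TIM4-negative) against 401.2 TPM (adjusted p = 0.89 and 0.257, limma), so directions drawn from these libraries rest on their labels. Control Kupffer cells of that table had Wnt2 at 3.40 and 3.34 TPM and wild-type BMDMs had 0 reads. The gene passed the filter only through liver macrophages, and this was a called difference in a comparison with 36.5% of 10558 genes called. In the libraries labelled Nr1h3 KO, Wnt2 measured 4.40 and 4.18 (TIM4-negative) and 5.67 and 3.89 (TIM4-positive), and Rspo3 2.29 and 2.90 and 2.12 and 2.30, against 1.28 and 1.39 in controls. Wnt2 differed from control by 0.27 ± 0.16 (adjusted p = 0.229) and 0.38 ± 0.16 (adjusted p = 0.121, limma). Stab2 was lower there, at 13.5 and 10.8 TPM and 15.6 and 11.2, against 53.5 and 55.1, and Clec4g had medians of 62.8 and 65.7 against 46.2. LY411575 gave Thbd of 22.8, 27.6 and 25.7 TPM against 17.6 and 18.1 in its controls (0.48 ± 0.12, adjusted p = 0.0104), and the antibodies 17.3, 19.1, 16.6 and 14.4 against 14.3 and 14.98 (0.19 ± 0.11, adjusted p = 0.326). The difference between these responses was 0.29 ± 0.16 (adjusted p = 0.29, limma). Smad4 was at 34.5 TPM in control Kupffer cells and 18.2 and 17.3 in the TIM4-positive and TIM4-negative libraries labelled Smad4 KO (adjusted p = 0.105 and 0.0908). Thbd in those libraries differed from controls by 0.04 ± 0.41 and -0.08 ± 0.45 (adjusted p = 0.986 and 0.959).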

How the data were processed

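Poly(A) RNA was converted to dUTP-marked libraries, per the labels' protocols. The deposited values are transcripts per length and library size (TPM), which the authors made with STAR and HOMER for mm10, per the submitters' processing notes and the file headers (analyzeRepeats over exons, condensed to 1 isoform per gene); no tool version is given in the sources used here. Deposited TPM summed to 510684 to 574479 per library. Values of 20 reads or fewer were whole multiples of 1 read's worth, within 0.1 read, for 100% of such values, which gave depths of 7830287 to 27776757 reads per library. Floors of 3 reads cover counting error only.

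Differences were fitted within each table by limma 3.58.1 (R 4.3.3) with a trended prior on log2(TPM + 1), over genes with at least 4 TPM in at least 2 libraries, with group means and no covariate. Adjusted p is Benjamini-Hochberg over all genes tested. A gene was called at an adjusted p under 0.05 and a 2-fold difference, and a fold is on the log2(TPM + 1) scale, which understates changes of low genes. The members and Stab2 are named throughout, in other tables where called or at 4 TPM in 2 libraries and otherwise by range. Other lists give counts with up to 4 examples of largest difference, beside genes picked for their role, and the 3 genes nearest to each member leave out symbols starting with Gm or Mir or ending in Rik. The members and lists were chosen with earlier results of these data known. Alternatives were a pseudocount of 0.25, no filter, quantile normalization, limma-voom on the recovered reads, a replicate block, scaling to pan-endothelial genes and leaving out each library. The fit was also run on simulated counts with a fixed spread and no library code effect. That run does not bear on the code of the STAB2-low libraries. Tables were made with Python 3.11.15 and pandas 2.3.3.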

Additional observations from a re-analysis of the deposited data

Results flagged for a closer look

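Wnt2 in the 4 RLM libraries treated with DLL1 and DLL4 antibodies measured 2.11, 2.21, 2.04 and 1.12 TPM, and the gap of the lowest to its neighbour was 0.839 of the whole range. Stab2 in the same libraries was 14.6, 8.10, 8.12 and 5.64 TPM. Chance puts about 1 in 20 groups past the limit used. There were 12 sets of 4 values, and those with every value under 1 TPM were left out of the check.

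The change of Thbd when TGF-beta was added to DLL4 differed between Smad4-deleted and Smad4 flox/flox BMDMs by 0.57 on the log2 scale (SE 0.14, limma adjusted p = 0.0142), from -0.75 in the former and -1.32 in the latter. Both libraries of each group showed the direction. Without DLL4, the same difference was 0.25 (SE 0.14, adjusted p = 0.379).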

How the results depend on the processing

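The 4 members called higher in STAB2-low against either other fraction were called under each alternative run, leaving out any library included, with log2 differences against STAB2-high of 5.72 to 7.17 for Rspo3 and 5.54 to 6.49 for Wnt9b over the libraries left out. The count between STAB2-intermediate and STAB2-high, 1, became 2 with a pseudocount of 0.25, 0 with no filter, 0 with quantile normalization, 11 with limma-voom and 0 to 20 when libraries were left out; the cause was not tested. STAB2-low against STAB2-intermediate called 702 to 1092 genes when libraries were left out, the lowest without the STAB2-low library other than number 210. Kit between intermediate and high turned from -0.02 to 0.0145 with limma-voom and 0.0343 with pan-endothelial scaling, and ranged from -0.14 to 0.10 over libraries left out. Against STAB2-high Kit reached -1.01, and against intermediate -1.04, with that scaling, and spanned -1.13 to -0.48 and -1.11 to -0.47 over libraries left out. With the replicate number as a block, intermediate against high called 27 genes, no member among them, and no other member's call changed. Deviations of same-numbered libraries correlated at 0.136, 0.057 and 0.137 between pairs of fractions. These correlations do not settle whether the numbers mark pairs, and the main fit left them unpaired. With the block, the SE of Thbd between low and high was 0.12 in place of 0.30. The 31 member calls in the other tables were 21 with quantile normalization, with 10 lost, all in the time course and named there, and 30 to 33 with libraries left out. With 2 libraries a fraction, small differences were not detectable.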
